A study of Mus musculus with 4 samples.

Results

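The genes described here encode the proteins of the cytosolic ribosome and a few close paralogs, Rpl22l1 foremost, in Py-4-1 cells, a mouse hemangioendothelioma line. Members were taken by gene symbol from probe sets that the platform annotation assigns to 1 gene alone, and where a gene had several such probe sets, the one with the highest average on the log2 scale was used. This gave 50 genes on 102 probe sets, of 12393 genes that have a probe set of their own. A pair of them, Rps6kc1 and Rps6kl1, share only the start of the symbol and are kinase-like genes. They were set apart after the list had been seen, which leaves 48 ribosomal protein genes and paralogs: 20 of the large subunit, 20 of the small subunit, 2 of the stalk and 6 paralogs.

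Each of the 4 arrays carries 1 clone. Controls 1 and 2 are clones transfected with pcDNA, and Prox1-labelled clones 1 and 2 are stable clones labelled pcDNA/Prox1, where Prox1 is the homeobox factor of lymphatic endothelium. All 4 clones come from the same line, and no other treatment, allele or time point is labelled. With 2 clones a group, differences between clones cannot be told apart from those of culture, RNA and array handling, and p-values measure only the spread between these arrays. Prox1 itself had intensities of 52.1 and 60.5 in the controls, against 62.4 and 44.3 in the clones labelled as expressing it. The signal of its probe set was thus no higher under the Prox1 label, but it was dim, with array medians from 163 to 180. Bacillus controls, which match no mouse gene, peaked at 45.3 and 101 in controls 1 and 2, against 88.4 and 97.5. Except in control 1, Prox1 was dimmer than that peak. Readings this near background cannot show whether its transcript differed between the groups. Whether that probe set lies in the transfected sequence is not given in the sources used here. Every direction below follows the labels.

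The cytosolic ribosome joins a small subunit, which decodes the mRNA, with a large subunit, which forms peptide bonds. Proteins named Rps belong to the small subunit and those named Rpl to the large one, and Rplp0, Rplp1 and Rplp2 form the stalk that recruits translation factors. Their mRNAs are among the most abundant of growing cells, and they start with a pyrimidine tract through which the mTOR pathway controls their translation. Rpl22l1 is the paralog of Rpl22, and the Rpl22 protein is known to repress expression of Rpl22l1.

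RefSeq promoter windows of assembly GRCm38.p6, from 250 bases before to 50 bases after an annotated start, were found for 42 of the 48 genes, which have 50 windows. The stretch from 45 bases before to 20 bases after the start is shown for Rpl22l1 and Rpl22, the pair on which the comparison turns, and for 4 members that show the pyrimidine tract of the family. Capitals mark runs of at least 8 letters that are all C or T, within the span from 10 bases before to 40 bases after the start, and in Rpl22l1 also the letters TATAAA.
Rpl22l1, chr3:28805463-28805527, + strand: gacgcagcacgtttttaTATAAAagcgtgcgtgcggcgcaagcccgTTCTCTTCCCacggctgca
Rpl22, chr4:152324391-152324455, + strand: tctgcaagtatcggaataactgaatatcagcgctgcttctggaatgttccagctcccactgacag
Rpl22, chr4:152325681-152325745, + strand: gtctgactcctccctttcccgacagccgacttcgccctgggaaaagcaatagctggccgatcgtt
Rpl35, chr2:39005112-39005176, - strand: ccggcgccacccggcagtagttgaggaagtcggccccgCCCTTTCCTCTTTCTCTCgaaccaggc
Rps10, chr17:27635225-27635289, - strand: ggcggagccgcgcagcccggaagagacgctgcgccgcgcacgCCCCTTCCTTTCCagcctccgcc
Rps18, chr17:33955646-33955710, - strand: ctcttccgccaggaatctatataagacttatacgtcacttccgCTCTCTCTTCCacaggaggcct
Rps27, chr3:90213629-90213693, - strand: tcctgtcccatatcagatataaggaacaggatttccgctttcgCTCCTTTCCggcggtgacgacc

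Within that span near the start, a C or T run on the coding strand was found in 27 of the 50 windows of the family (54%). The share was 17.4% of all 32851 windows in the table. Rpl22l1 had a run of 10 letters in the span, and neither window of Rpl22 had one there. A longer C or T run in the second Rpl22 stretch printed above lies further before the start and was not counted. The letters TATAAA were searched on the coding strand from 60 bases before to 20 bases after the start. They occurred in 1 of the 50 windows, against 3.20% of all windows. That window was the one of Rpl22l1, where they begin 28 bases before the start. The stretches printed for Rps18 and Rps27 hold tataag, which differs in the last letter alone and was not counted. The letters CCGGAAG, searched on both strands of the whole window, occurred in 21 of the 50 windows (42%) and in 8.86% of all windows, but not in those of Rpl22l1 or Rpl22. These motifs were chosen after the windows had been looked at, and annotated starts can lie some bases from those used in these cells. The matches describe letters only, since no promoter was assayed.

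Rpl22l1 differed most between the groups and was lower in both Prox1-labelled clones. Its intensity, the probe set signal on a linear scale, was 3418 in control 1 and 4079 in control 2, against 1625 and 1709 in Prox1-labelled clones 1 and 2. The groups lay far apart, and the Prox1-labelled clones nearly coincided. The means were 3748 ± 467 (SD, n = 2) for controls and 1667 ± 58.8 under the Prox1 label, a difference of 2.21-fold on the log2(intensity + 47) scale used for every log2 change here. The log2 change, Prox1-labelled minus control, was -1.14 ± 0.18 (standard error), and it missed the threshold of 0.05 after adjustment over all 11656 probe sets tested (limma adjusted p = 0.0726, unadjusted p = 0.00015).

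By p, Rpl22l1 ranked 23 among these probe sets, and by log2 change 29 from the lowest. It was named with this difference already known from the same arrays, so its p is not independent evidence. Leaving out control 1 gave an adjusted p of 0.0167 and leaving out control 2 gave 0.00846, while leaving out Prox1-labelled clone 1 or 2 gave 0.153 or 0.0888 (limma). In such fits the lone array of a group is assumed to vary like the other group. Over 15 alternatives the log2 change ran from -1.27 to -1.02 and the adjusted p from 0.00846 to 0.367, with 3 past the threshold. As in all bulk RNA, fewer cells that express a gene and less of its RNA per cell cannot be told apart.

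Rpl22, the large subunit protein that Rpl22l1 resembles, stood on the other side of the controls in both Prox1-labelled clones. Its brighter probe set measured 9512 and 7566 in controls, with a mean of 8539 ± 1376 (SD, n = 2), against 10907 and 10998, with a mean of 10953 ± 64.1. Its other probe set measured 613 and 632 in controls, against 813 and 777. The groups did not overlap on either probe set, as was the case for 46.2% of all probe sets tested. The log2 changes of 0.37 ± 0.17 and 0.33 did not pass (limma adjusted p = 0.368 and 0.452). On the brighter probe set the change was 0.53 without control 1 and 0.20 without control 2.

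**Figure D1:**
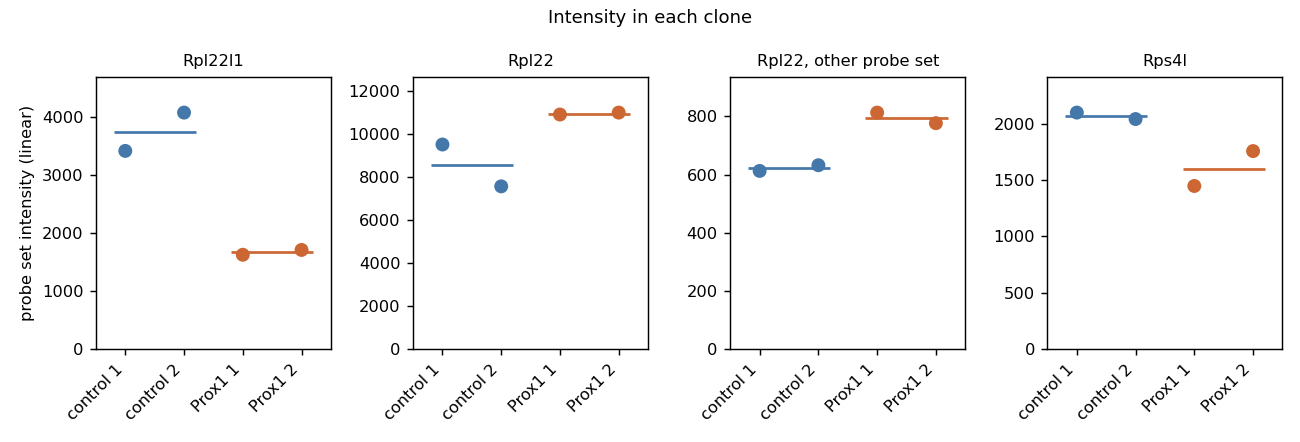
Probe set intensity on a linear scale in each of the 4 clones, for Rpl22l1, both probe sets of Rpl22 and Rps4l, with single arrays as points and means of 2 clones as lines. Rpl22l1 lies at 3418 and 4079 in controls but 1625 and 1709 under the Prox1 label, and the other panels show smaller gaps without overlap.

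Over all 20 large subunit genes, Rpl22 included, the log2 change ranged from -0.19 to 0.37 with a median of -0.035, and 16 lay within 0.2 of 0. The other 4 were Rpl22, Rpl14, Rpl39 and Rpl37a, all positive. Rpl14 had intensities of 277 and 303 in controls, against 402 and 374, a log2 change of 0.37 (limma adjusted p = 0.431). Rpl37a had 13533 and 10383 in controls, against 13893 and 13939, a log2 change of 0.23 (adjusted p = 0.597) that was 0.42 without control 1 and 0.040 without control 2. Rpl27a had 430.0 and 372, against 435 and 475, a log2 change of 0.17 (adjusted p = 0.759) that ran from 0.073 to 0.26 on leaving out a clone. On the chosen probe sets, only Rpl14, Rpl37a, Rpl27a and Rpl22 of the 20 large subunit genes stood higher without overlap. Of all probe sets tested, 23.9% did.

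On the lower side, Rpl8 and Rpl35 did not overlap on their chosen probe sets, where 22.3% of all probe sets tested stood lower without overlap. Rpl8, a protein near the peptidyl transferase centre, had intensities of 14418 and 12971 in controls, against 12694 and 11596, a log2 change of -0.17 (limma adjusted p = 0.674) that ran from -0.25 to -0.096 on leaving out a clone. Rpl35 had 18205 and 17024, against 16513 and 16251, a log2 change of -0.10 (adjusted p = 0.803) that ran from -0.15 to -0.055. Rpl41, which encodes a very short basic peptide of the ribosome, had 26708 and 23368, against 23409 and 21494, with groups that overlapped. Its log2 change was -0.16 (adjusted p = 0.698), but -0.059 without control 1 and -0.25 without control 2. Dimmer Rpl41 probe sets, at 12900 and 11467 against 10069 and 10497 and at 332 and 302 against 211 and 259, did not overlap. Their log2 changes were -0.24 and -0.37 (limma adjusted p = 0.529 and 0.456). A further one, not tested, overlapped. Rpl38 was raised in control 1 alone, at 24782, against 17713, 19285 and 19349 in the other clones, and Rpl7a ran from 17023 to 20497 with overlap. Intensities of different probe sets are not abundances and do not rank these genes against each other.

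Small subunit genes had a median log2 change of 0.0088 over 20 genes, 11 of them positive and 14 within 0.2 of 0. Rps19, known for its mutations in Diamond-Blackfan anaemia, had intensities of 12642 and 10241 in controls, against 13671 and 14255, a log2 change of 0.29 (limma adjusted p = 0.461). Rps20 had 9906 and 8391, against 10682 and 11304, a log2 change of 0.27 (adjusted p = 0.498). Another bright Rps20 probe set had 8818 and 7434, against 11168 and 10863. Its log2 change was 0.44 (limma unadjusted p = 0.025, adjusted p = 0.277). Rps3a1 had 10833 and 9813, against 11218 and 11514, a log2 change of 0.14 (adjusted p = 0.742). On the chosen probe sets, only these 3 of the 20 small subunit genes stood higher without overlap, where 23.9% of all probe sets tested did. The size of each on its chosen probe set rested on which control was used. Without control 1 the log2 change was 0.45 for Rps19, 0.39 for Rps20 and 0.21 for Rps3a1, and without control 2 it was 0.14, 0.15 and 0.069. For Rps29, whose probe set is among the 5 brightest of the family, the values of 20368 and 17336 in controls and 20779 and 17186 under the Prox1 label differed by a log2 change of 0.0081.

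Rps27, a zinc finger protein of the ribosome, had the largest log2 change of the small subunit, and it rested on 1 clone. Its intensities were 859 in control 1 but 351 in control 2, against 325 and 335. The log2 change of -0.67 ± 0.34 (limma adjusted p = 0.403) was -0.078 without control 1 and -1.26 without control 2 (adjusted p = 0.00548). Rps14, a protein of the platform of the small subunit, had 17656 and 13628 in controls, against 13375 and 12676, a log2 change of -0.25 (adjusted p = 0.555). Without control 1 it was -0.065, and without control 2 it was -0.44. The other Rps14 probe set had 16146 and 14203, against 13126 and 11686, a log2 change of -0.29 (limma adjusted p = 0.447).

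Rps26, which lies at the mRNA exit channel, had intensities of 16746 and 13677 in controls, against 13023 and 12652, a log2 change of -0.24 (limma adjusted p = 0.556). Rps25 had 996 and 666, against 661 and 635, a log2 change of -0.31 (adjusted p = 0.579). Rps2, which lines the mRNA entry channel, had 20308 and 17135, against 16699 and 15986, a log2 change of -0.19 (adjusted p = 0.633). On the chosen probe sets of Rps14, Rps26, Rps25 and Rps2, control 1 lay above the other 3 clones by more than control 2 lay above the Prox1-labelled ones. Without control 1 the log2 change was -0.091 for Rps26, -0.036 for Rps25 and -0.068 for Rps2, and without control 2 it was -0.38, -0.59 and -0.31.

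The stalk genes overlapped between the groups. Rplp0, the anchor of the stalk, had intensities of 17615 and 14000 in controls, against 15934 and 16682, a log2 change of 0.054 (limma adjusted p = 0.918). Rplp2, an acidic protein bound to it, had 14947 and 11308, against 14096 and 12872, a log2 change of 0.051 (adjusted p = 0.931). Both were positive without control 1, at 0.22 and 0.25, and negative without control 2, at -0.11 and -0.15. Rplp1 is named only on a probe set that it shares with a pseudogene.

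Among the paralogs besides Rpl22l1, Rps4l was the one tested whose groups did not overlap. Over all probe sets tested, 46.2% did not overlap. Rps4l, a copy of Rps4x, had intensities of 2098 and 2041 in controls, against 1447 and 1756, a log2 change of -0.37 ± 0.19 (limma adjusted p = 0.409) that ran from -0.50 to -0.23 on leaving out a clone. Rps4x itself overlapped, from 15320 to 20342, with a log2 change of -0.035, and a signal shared by such near-identical copies would make their split uncertain. Rps27l, a p53-inducible paralog of Rps27, had 8957 and 8165, against 8463 and 8071, a log2 change of -0.049 (adjusted p = 0.923) that was positive on its other probe sets. Rpl7l1 had 1104 and 809, against 868 and 842, a log2 change of -0.14 (adjusted p = 0.816).

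Rpl39l and Rpl3l, paralogs known mainly from testis and from muscle, lay below the intensity filter and were not tested. Rpl39l measured from 1.70 to 28.9 and Rpl3l from 6.75 to 10.8 over the 4 clones, under the highest Bacillus control probe set of the same array, which matches no mouse gene and measured from 45.3 to 101. The kinase-like Rps6kc1, from 6.73 to 13.0, and Rps6kl1, from 57.7 to 125, were likewise not tested.

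**Figure D2:**
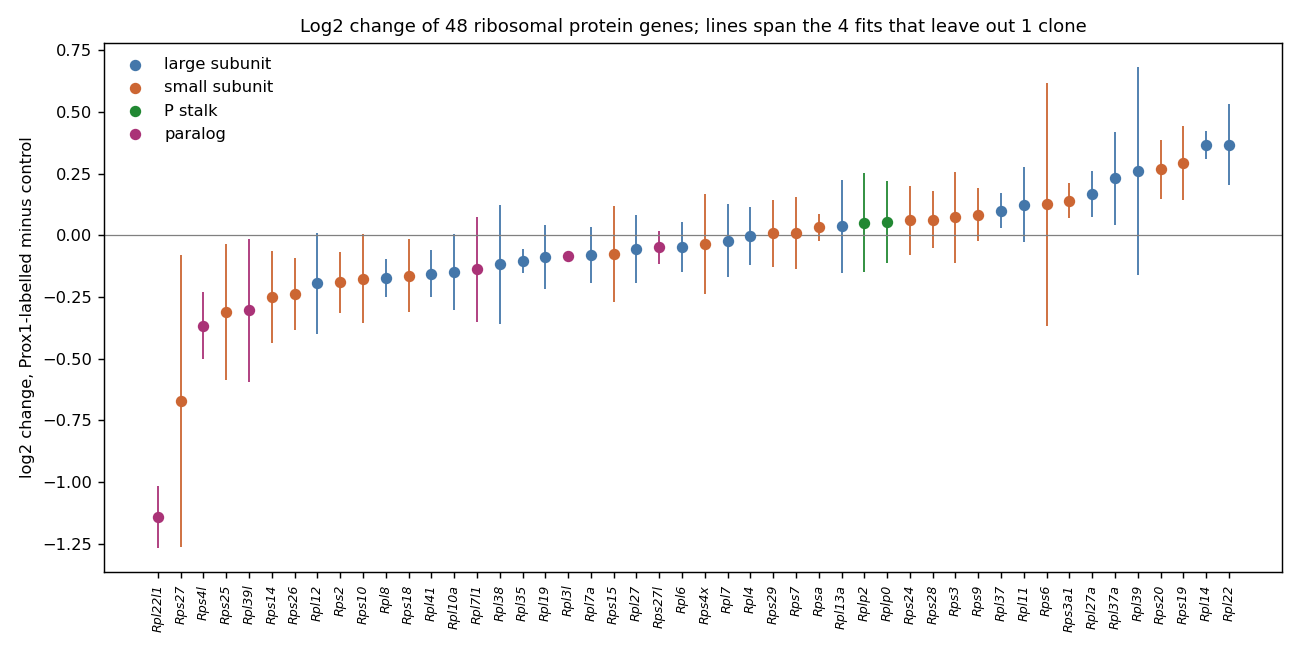
Log2 change, Prox1-labelled minus control, of the 48 genes in order of size, coloured by class. Points come from all 4 clones and lines span the 4 fits that each leave out 1 clone. Rpl22l1 stands apart at -1.14 with a short line, Rps27 at -0.67 has a line from -1.26 to -0.078, and most others lie near 0.

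As a family, the 48 genes had a median log2 change of -0.042, with 21 positive and 27 negative, against a median of 0.012 over all 11656 probe sets tested. The median size of the change regardless of sign was 0.12 for the family and 0.21 for all probe sets tested. A log2 change beyond 0.5 in either direction was seen in 2 of the 48 genes (4.17%), Rpl22l1 and Rps27, and in 14.4% of all probe sets tested. The family is also brighter, with a median intensity of 12928 against 563 for all probe sets tested, and the part of brightness in this difference was not tested.

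Of the 48 genes 46 passed the filter, and limma called 0 of them at an adjusted p under 0.05, where 0.103% of all probe sets tested were called. At an unadjusted p under 0.05 on the chosen probe sets there was 1 gene, Rpl22l1, on the lower side. It makes 2.17% of the 46, where the share of all probe sets tested was 14.5% in either direction and 5.88% on the lower side. The groups did not overlap in 16 of the 46 (34.8%), against 46.2% of all probe sets tested. Of these 16 genes, 7 were higher (15.2%, against 23.9%) and 9 lower (19.6%, against 22.3%). Rpl22l1 was 1 of 43 probe sets, or 0.369% of those tested, that were lower at least 2-fold without overlap. None of these shares was above that of the arrays as a whole, apart from the last, which Rpl22l1 alone fills.

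**Figure D3:**
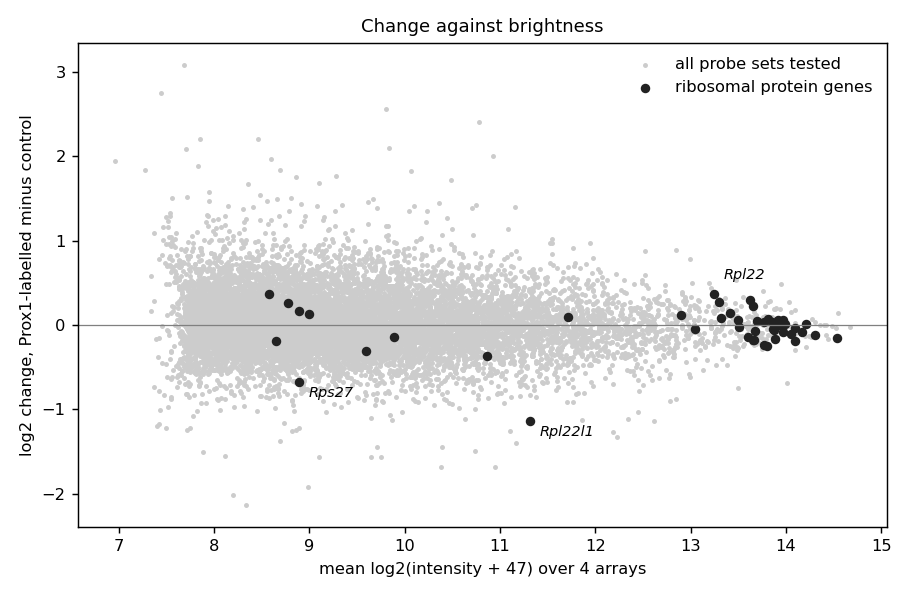
Log2 change, Prox1-labelled minus control, against mean log2(intensity + 47) over the 4 arrays. Grey points are all 11656 probe sets tested and black points the 46 ribosomal protein genes that passed the filter. Most black points sit at the bright end close to 0, and Rpl22l1 (-1.14) lies below them.

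Across the family the controls differed from each other by more than the groups did. Control 2 minus control 1 had a median log2 difference of -0.28 over the 48 genes, with 44 lower in control 2, while the median over all probe sets tested was 0.039. Between Prox1-labelled clones 2 and 1 the median was -0.041, with 30 of the 48 negative. Control 1 was the highest array for 33 of the 48 genes and control 2 the lowest for 28. Rps27 (-1.19), Rps6 (-0.99) and Rpl39 (0.85) had the largest log2 differences between the controls. Rps6, the substrate of the S6 kinases, had intensities of 640 and 299, against 529 and 444. Rpl39 had 252 and 490, against 408 and 460.

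The summed intensity of the 48 probe sets made up 3.57% of all signal in control 1 and 3.09% in control 2, against 3.33% and 3.23% in Prox1-labelled clones 1 and 2. The means were 3.33 ± 0.338% and 3.28 ± 0.0759% (SD, n = 2). Their difference of -0.053 percentage points was within the spread of the controls (exact permutation test, 2-sided, p = 1.0, where 2 against 2 cannot go below 0.333). It was 0.19 without control 1 and -0.29 without control 2, so its sign rested on which control was used. Over all probe sets that name a ribosomal protein gene, shared ones included, the shares of all signal were 12.6% and 10.8% in controls, against 11.8% and 11.7%. That difference was 0.029 percentage points, and these groups also overlapped.

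The lead of control 1 was shared by bright probe sets of other genes. Bright here means a mean intensity of at least 8000, a limit set after seeing the data. Control 1 was highest for 26 of 34 bright ribosomal protein genes and for 84 of 145 other bright probe sets. The 145 were set apart by gene symbol alone and include Fau, which encodes a ribosomal protein under a different symbol. Fau is counted below with genes that work beside the ribosome or share its pyrimidine tract. Relative to the mean of the 4 arrays, the median log2 value of control 1 was 0.15 in the 34 and 0.13 in the 145. That of control 2 was -0.13 and -0.087. The 3′ to 5′ ratio of control probe sets, a sign of RNA integrity, ran from 0.759 to 0.800 for Gapdh and from 1.29 to 1.44 for Actb, with control 1 inside both ranges. The part of the bright end in the values above was not tested.

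**Figure D4:**
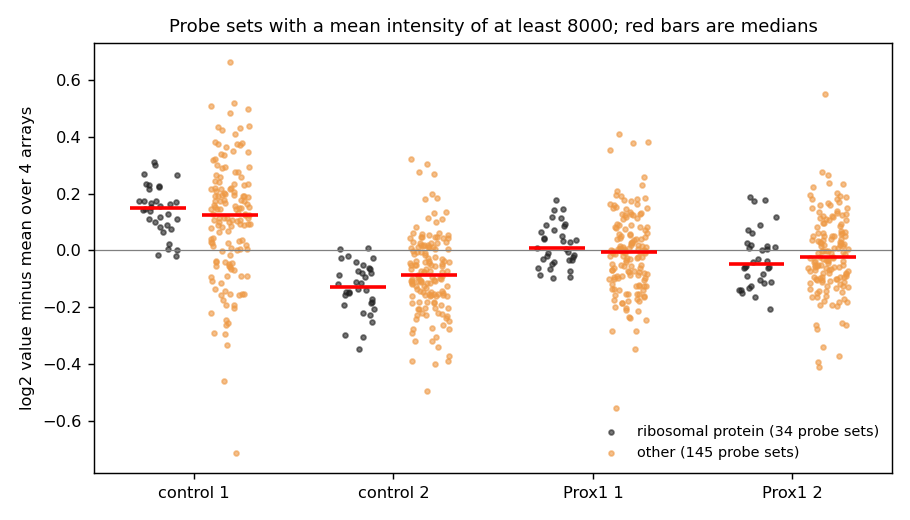
Log2 value in each array minus the mean over the 4 arrays, for probe sets with a mean intensity of at least 8000. Black points are 34 ribosomal protein genes, orange points 145 other probe sets, and red bars medians. Control 1 lies above 0 in both sets (0.15 and 0.13) and control 2 below 0 (-0.13 and -0.087), with the Prox1-labelled clones between.

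Quantile normalization, which gives all arrays 1 distribution, brought the median log2 difference between the controls to -0.019 over the family. Under it limma called 0 of the 46 genes at an adjusted p under 0.05, and 7 had an unadjusted p under 0.05 (15.2%, against 15.2% of all probe sets tested). Higher were Rpl22 (log2 change 0.39, adjusted p = 0.191), Rps19 (0.30, 0.221), Rps20 (0.28, 0.270) and Rpl37a (0.24, 0.293). Lower were Rpl22l1 (-1.12, 0.109), Rps14 (-0.23, 0.285) and Rps26 (-0.21, 0.305). The groups did not overlap in 24 of the 46 genes (52.2%, against 47.2%), 10 higher and 14 lower. Shares by direction over all probe sets are not given under this normalization, so the counts by direction were not compared. The shares in either direction lay near those of all probe sets.

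Probe sets of 1 gene did not always agree. Of 19 genes with more than 1 probe set tested, 10 had the same sign on all of them. Rps10 had a log2 change of -0.18 on its brightest probe set, at 15612 and 12125 in controls against 12134 and 12224. On a dimmer one it measured 431 and 2262 against 1595 and 4825, a log2 change of 1.43 (limma adjusted p = 0.371), with wide spread in both groups. For 10 genes the chosen probe set had a mean intensity under 1000, and 7 of these genes, among them Rpl14, Rps25, Rps27 and Rps6, also lie on probe sets that the annotation assigns to several genes. In all, 102 probe sets name a ribosomal protein gene together with other genes, often pseudogenes. Their log2 changes had a median of 0.0041 and ranged from -0.56 to 0.69, and of the 91 tested limma called 0, with 5 at an unadjusted p under 0.05 (5.49%, against 14.5% of all probe sets tested).

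Genes that work beside the ribosome or share its pyrimidine tract were counted in the same way, and shares over all probe sets tested were again 0.103% called, 14.5% at an unadjusted p under 0.05 and 46.2% without overlap. Of 21 listed, 17 were measured and tested, 9 positive and 8 negative, with a median log2 change of 0.021. Limma called 0 of them, with 1 at an unadjusted p under 0.05 (5.88%, against 14.5%), and the groups did not overlap in 6 (35.3%, against 46.2%). Eif3f, a subunit of initiation factor eIF3, had intensities of 4519 and 3967 in controls, against 5760 and 5538, a log2 change of 0.41 (limma adjusted p = 0.312). Eif3e, of the same factor, had a log2 change of 0.26 (adjusted p = 0.511). Btf3, of the complex that binds nascent chains, had 7331 and 4093, against 3439 and 3967, a log2 change of -0.56 (adjusted p = 0.364) that ran from -0.98 to -0.15 on leaving out a clone.

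Of 21 listed genes of growth signalling to the ribosome, 16 were measured, 13 were tested and limma called 0, with 2 at an unadjusted p under 0.05 (15.4%, against 14.5% of all probe sets tested). The groups did not overlap in 6 of the 13 (46.2%, the same share as over all probe sets tested, 46.2%). Eif4ebp1, the mTOR-controlled inhibitor of the cap-binding protein, had intensities of 3190 and 2759 in controls, against 2023 and 1866, a log2 change of -0.60 ± 0.18 (limma adjusted p = 0.207). Mtor, the kinase itself, had 392 and 500.3, against 752 and 637, a log2 change of 0.59 ± 0.21 (adjusted p = 0.254). The 6 include both genes and Mycn, a transcription factor of cell growth, with a log2 change of -0.44 (adjusted p = 0.421).

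Of 9 listed ribosomal protein chaperones and p53 pathway genes, 7 were measured, 6 were tested and limma called 0, with 0 at an unadjusted p under 0.05, where the shares over all probe sets tested were 0.103% and 14.5%. The smallest p in this list belonged to Cdkn1a, the p53 target p21, with a log2 change of -0.25 (limma adjusted p = 0.707) that ran from -0.63 to 0.14 on leaving out a clone. Tsr2, the chaperone of Rps26, stood at -0.20 (adjusted p = 0.727, from -0.35 to -0.043) and Grwd1, the chaperone of Rpl3, at -0.18 (adjusted p = 0.755, from -0.36 to 0.010).

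Mitochondrial ribosomal proteins, which serve translation inside mitochondria, had a median log2 change of -0.047 over 74 genes, 30 of them positive. Limma called 0, where 0.103% of all probe sets tested were called. At an unadjusted p under 0.05 there were 5 higher and 5 lower, together 13.5% against 14.5% of all probe sets tested, and the groups did not overlap in 34 (45.9%, against 46.2%). Both shares lay near those of the arrays as a whole. Mrps33 had intensities of 838 and 922 in controls, against 1396 and 1389, a log2 change of 0.64 (limma adjusted p = 0.192). Mrps16 had 1210 and 1243, against 842 and 685, a log2 change of -0.66 (adjusted p = 0.202). Mrpl12 had 1489 and 1245, against 735 and 933, a log2 change of -0.69 (adjusted p = 0.206). Between the controls this family differed by a median log2 difference of 0.013, where the cytosolic family differed by -0.28.

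Hacd1, Tubb2a, Csn3, Ints6 and Pdia4 had the patterns most like that of Rpl22l1 among 137 genes with at least its SD on the log2 scale, with Pearson's r from 0.997 for Hacd1 to 0.936 for Pdia4. This describes 4 arrays that share their normalization, and the genes were ranked by this likeness. Hacd1 had intensities of 588 and 777 in controls, against 263 and 264, so that, as for Rpl22l1, control 2 was the highest array.

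The labelled endothelial origin was checked on marker genes. Of 10 endothelial markers 9 lay above the median of every array, and their summed intensity was 35882 and 45924 in controls, against 49433 and 46795. Control 1, highest in ribosomal protein signal, was thus lowest in this sum, and its part in the results was not tested. None of 6 epithelial, 3 hepatocyte or 3 neuronal markers passed the filter. Of 5 leukocyte markers measured 2 passed, Cd68 (708 to 970) and Csf1r (240 to 443). Ptprc, the pan-leukocyte gene, measured from 15.2 to 51.2, and the sums over the 5 ran from 1158 to 1505. Of 6 mesenchymal markers 3 passed, Acta2 (226 to 408), Des (162 to 256) and Col1a2 (144 to 191). Pdgfrb measured from 3.17 to 11.6, and the sums over the 6 ran from 699 to 1031.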

How the data were processed

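Total RNA of each clone, taken with Trizol from 1 culture dish per the labels' protocols, was biotinylated and read on a one-colour array. The deposited intensity of each probe set is on a linear scale, and the submitters' processing notes name MAS5, with version and settings not given in the sources used here. Each deposited array has a trimmed mean of 500.0, and nothing further was done to the scale. Of 22690 probe sets, 64 Affymetrix controls stayed out of the tests. The log2 values used here were computed from the deposited intensities after adding 47, the 25th percentile over the table, which understates changes of dim probe sets. A probe set was tested if it exceeded the array median in 2 or more arrays. Tests used limma 3.58.1 under R 4.3.3 (lmFit, then eBayes with trend), 2-sided, adjusted by Benjamini-Hochberg over the 11656 tested. The fit was also run on simulated data with the same spread for every probe set and no shift between arrays. That setting differs from these arrays, so it does not show how the tests perform on them. The number of arrays limits the precision.

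All 48 genes matched the RefSeq gene table by Entrez identifier. Genes were named by rule: Rpl22l1, Rpl22, the measured paralogs, up to 8 higher and 8 lower genes without overlap that had the smallest p, the 5 brightest, the 5 with the largest difference between clones, 3 of each further list and 5 most like Rpl22l1. Rpl35, Rps4x, Rps10, Rps18 and the stalk genes were added after their values were seen. Members and lists were chosen with earlier results of these data known. Alternatives were other normalizations, pseudocounts, filters, variance models and probe set choices, the clone number as a block, and leaving out each clone.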

Additional observations from a re-analysis of the deposited data

How the results depend on the processing

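Limma called 0 ribosomal protein genes under the 10 alternatives that kept all 4 clones without pairing them. It called 1 (Rpl22l1) with the clone number as a replicate block and from 0 to 4 on leaving out a clone, the 4 being Rpl22l1, Rpl38, Rps14 and Rps27 without control 2. Rpl22l1 stood at -1.14 with the block (adjusted p = 0.0188) and from -1.27 to -1.02 on leaving out a clone. The labels do not say whether same-numbered clones are paired. Differences between clones 1 and 2 correlated at -0.0091 between the groups, which cannot decide whether culture or handling was shared. The block moved the calls over all probe sets from 12 to 110. Those calls were 4 under quantile normalization, 8 with median centring, 7 with the robust variance model, 1 with gene means, 0 without the filter (2300 at an unadjusted p under 0.05) and 42 to 1150 on leaving out a clone. The family's median log2 change ran from -0.15 (without control 2, 9 of 48 genes positive) to 0.099 (without control 1, 34 positive). It was 0.00059 with gene means and -0.0032 with the probe sets of several genes added, a choice made after seeing the data. The median size of the log2 difference between clones of a group, over both groups, was 0.15, and 0.071 after quantile normalization. Signs turned for Rps27l without _x_at and _s_at probe sets (0.042) and with gene means (0.030), and for Rpl37a with gene means (-0.20). On leaving out a clone Rps27l ran from -0.12 to 0.017 and Rpl7l1 from -0.35 to 0.076. Of 268 values for 18 other named genes, 32 were not tested, most of them for Rpl39l and Rpl3l, which background limits. Of the 236 tested, 229 kept sign and side of the threshold, 5 turned sign and 2 newly passed.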
